A study of Rattus norvegicus with 6 samples.

Results

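The genes described here carry calcium, magnesium and sodium chloride across the distal convoluted and connecting tubule of the kidney, or control that transport. They are 10 genes chosen by name, with earlier results of these data known: S100g, Calb1, Trpv5, Trpm6, Slc8a1, Slc12a3, Pvalb, Klhl3, Wnk1 and Vdr. All probes whose RefSeq accession belongs to a member were taken, which gave 20 probes of 8 genes among the 61537 non-control probes of the array, of which accessions named 15645 genes. No probe matched Trpm6 or Klhl3 through an accession, and these genes were not analysed here. The single Pvalb probe was not well above background on any of the 6 arrays, so that 7 genes with 19 probes were tested.

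Renal cortex RNA came from male Sprague-Dawley rats, Crl:CD(SD), bought at 5 weeks of age. The control group of 3 animals received corn oil for 4 weeks, and the treated group of 3 animals received 100 mg/kg/day of 4-hydroxy-m-phenylenediammonium dichloride for 4 weeks, with a vehicle not given in the sources used here. The compound is a salt of 2,4-diaminophenol, an easily oxidised aromatic amine, and the comparison asked which transcripts differ in the cortex of rats dosed with it. Each animal had 1 array, so the number of arrays limits the precision. Between 63.1% and 69.6% of probes were well above background on an array, and no member spot was saturated. The controls shared slide 1 and the dosed animals slide 2, each scanned in its own run, and an effect of the slide cannot be told apart from one of the dose. A level is the log2 signal minus that of the 75th percentile probe of its array, and on this scale the labelling spike-in probes had a median difference of -0.13, treated minus control.

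In the distal nephron, calcium enters the cell through the apical channel TRPV5, is bound and carried across it by calbindin-D28k (Calb1) and calbindin-D9k (S100g), and leaves through the basolateral sodium-calcium exchanger NCX1 (Slc8a1) and a plasma membrane calcium pump. The vitamin D receptor (Vdr) is a nuclear receptor that raises transcription of several of these genes. The distal convoluted tubule just upstream reabsorbs sodium chloride through the thiazide-sensitive cotransporter NCC (Slc12a3), which the WNK kinases activate and the adaptor KLHL3 restrains by sending WNKs for degradation. The same segment takes up magnesium through TRPM6 and, in rodents, contains the cytosolic calcium buffer parvalbumin (Pvalb).

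RefSeq promoters of assembly GRCr8 were held for 8 of the members, S100g and Calb1 not among them. Of the genes with a promoter, Trpv5, Slc8a1, Wnk1 and Vdr had lower means at every tested probe in treated animals, and Slc12a3 did not. The 250 bases before the annotated start are shown for Trpv5, Slc8a1 and Slc12a3 only. They lie at chr4:71529383-71529632 on the minus strand, chr6:19023309-19023558 on the plus strand and chr19:10675051-10675300 on the minus strand, written 5′ to 3′ with a TATAAA box in capitals.
Trpv5: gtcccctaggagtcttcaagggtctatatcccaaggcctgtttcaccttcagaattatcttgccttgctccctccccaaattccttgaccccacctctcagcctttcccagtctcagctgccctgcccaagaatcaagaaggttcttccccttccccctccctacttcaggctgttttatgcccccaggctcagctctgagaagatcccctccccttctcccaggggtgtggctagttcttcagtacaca
Slc8a1: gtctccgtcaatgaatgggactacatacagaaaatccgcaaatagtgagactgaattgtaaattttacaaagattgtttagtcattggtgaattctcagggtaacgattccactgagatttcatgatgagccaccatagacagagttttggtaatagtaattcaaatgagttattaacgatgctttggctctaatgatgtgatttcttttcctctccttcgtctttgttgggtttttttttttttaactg
Slc12a3: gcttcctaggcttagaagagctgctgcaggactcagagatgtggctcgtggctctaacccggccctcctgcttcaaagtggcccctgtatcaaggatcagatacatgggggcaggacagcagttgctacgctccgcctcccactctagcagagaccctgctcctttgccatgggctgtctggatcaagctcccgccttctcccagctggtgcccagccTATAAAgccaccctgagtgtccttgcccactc
A TATAAA box on the gene's own strand began 32 bases before the Slc12a3 start and was not found on either strand in the windows of the other 7 members. Of all 33469 promoter windows of 300 bases, which run from 250 bases before to 50 after the start, 14.2% hold TATAAA on either strand. The vitamin D response element made of direct repeats with 3 spacer bases, searched on both strands, was in 0.35% of all windows and in none of those of the 8 members. The GC content of the 250 bases was 54.4% for Trpv5, 35.2% for Slc8a1 and 59.2% for Slc12a3. These matches describe the letters of the window only.

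Of the 7 genes tested, 1 fell in treated cortex and 0 rose, at a limma adjusted p under 0.05 over all 12130 genes tested. The gene that fell was S100g, and the background is 1.33% of genes called lower and 3.03% called higher. These shares stand for 161 and 368 genes, and with a normexp background 496 were called lower and 449 higher. Treated animals had the lower mean for 6 of the 7, against 56.5% of all genes, and Slc12a3 was the exception. At an unadjusted p under 0.05, 4 members were lower and 0 higher, against 13.2% and 11.8% of all genes. The same number, 4 of 7, had every treated value below every control value, as did 18.7% of all genes. The median log2 difference, treated minus control, was -0.37 over the 7 genes and -0.030 over all genes. The members were chosen with earlier results of these data known, so these counts describe the list and do not test it. In a cortex sample, fewer cells of a segment and less RNA per cell cannot be told apart.

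**Figure D1:**
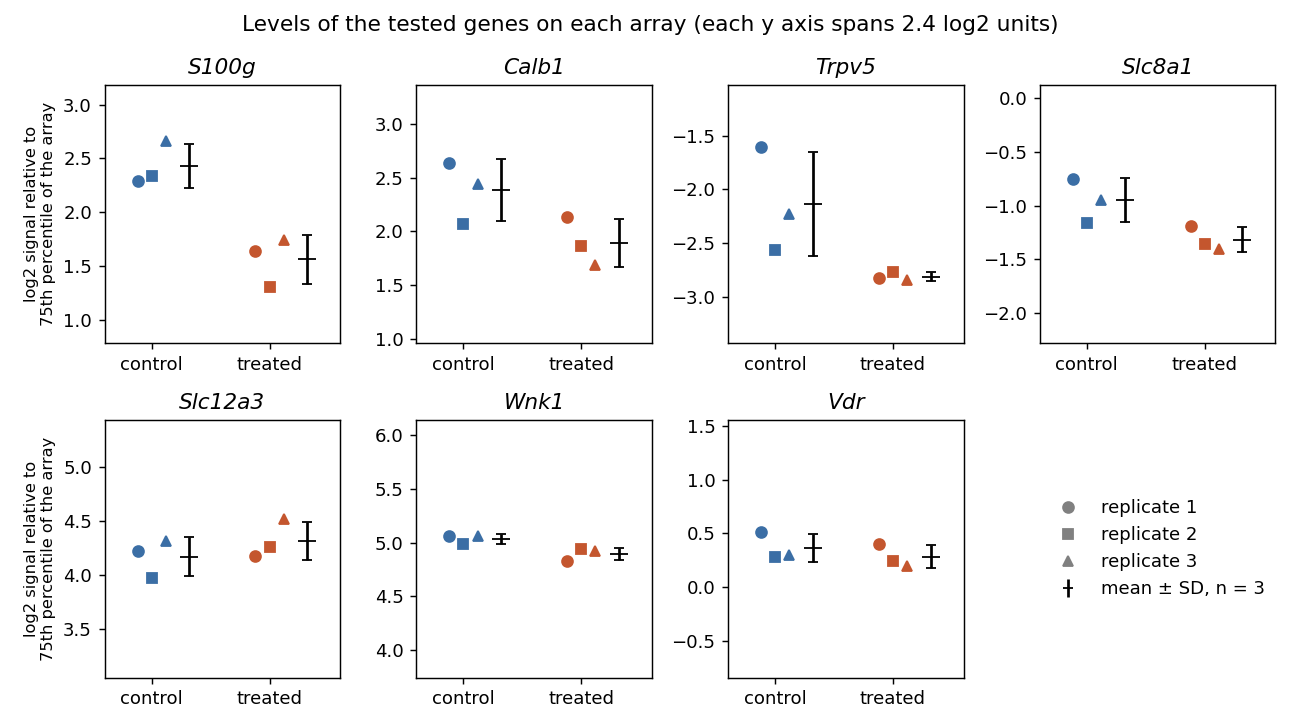
Log2 level scaled to the array's 75th percentile (vertical axis) for the 7 tested genes, each at its brightest probe, in 3 control and 3 treated animals. Points are single arrays, and bars are the mean ± SD (n = 3). The groups are apart for S100g, Trpv5, Slc8a1 and Wnk1 and overlap for Calb1, Slc12a3 and Vdr, with S100g the only one past the threshold.

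The calbindin genes come first, as the carriers of calcium through the cell. S100g had log2 levels of 2.28, 2.34 and 2.66 in the control animals and of 1.64, 1.30 and 1.74 in the treated animals. The lowest control animal was well above the highest treated one. The mean level fell 1.83-fold, from 2.43 ± 0.21 to 1.56 ± 0.23 (SD, n = 3 each; log2 difference -0.87, SE 0.16, limma adjusted p = 0.0442). The 95% confidence interval of the log2 difference ran from -1.25 to -0.48, or from 2.38-fold to 1.40-fold lower. S100g has 1 probe, so no further probe of it could be compared. The call did not hold without any 1 of the 6 arrays, with limma adjusted p from 0.0869 to 0.108 and log2 differences from -0.96 to -0.74. In those fits limma called 0 to 44 of all genes higher and 0 to 2 lower.

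Calb1, the larger calbindin, is built from several EF-hand calcium-binding loops and marks the late distal convoluted and connecting tubule. Its levels were 2.64, 2.07 and 2.44 in controls and 2.13, 1.86 and 1.69 in treated animals. The treated values lay low, but treated replicate 1 exceeded control replicate 2, so the groups overlapped. The mean was 2.38 ± 0.29 against 1.89 ± 0.22 (SD, n = 3 each), and the log2 difference of -0.49 (SE 0.18) did not pass (limma adjusted p = 0.172). Its interval from -0.94 to -0.041 reaches the size seen for S100g.

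Trpv5, the apical entry channel and the step that sets the rate of calcium transport across these cells, is covered by 2 probes. At the brighter probe, A_64_P143825, the levels were -1.61, -2.56 and -2.22 in controls and -2.83, -2.76 and -2.85 in treated animals. The treated animals were nearly alike and all below the controls, which were spread widely, with control replicate 1 the highest. The mean was -2.13 ± 0.48 against -2.81 ± 0.04 (SD, n = 3 each), a log2 difference of -0.68 (SE 0.24, limma adjusted p = 0.154), and without control replicate 1 the difference was -0.42. At the other probe, A_44_P228928, the levels were -3.35, -3.72 and -3.35 in controls and -4.04, -4.09 and -3.97 in treated animals. This probe again separated the groups, with a tighter spread among controls. In the comparison of all 40988 probes well above background in a group, it was called lower (log2 difference -0.56, SE 0.12, limma adjusted p = 0.0483). That call did not hold with a normexp background (-0.39, limma adjusted p = 0.0652), an intensity trend (0.0562), no filter (0.112) or the replicate block (0.0974).

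Slc8a1 encodes NCX1, the exchanger that moves calcium out of the cell to the blood side. At its brightest probe, A_44_P978398, the levels were -0.75, -1.16 and -0.94 in controls and -1.19, -1.36 and -1.40 in treated animals. The groups did not overlap, although control replicate 2 and treated replicate 1 nearly met. The log2 difference was -0.37 (SE 0.12) and did not pass over all genes (limma adjusted p = 0.142). All 6 Slc8a1 probes had a lower mean in treated animals, with log2 differences from -0.53 to -0.24, and 3 of them showed no overlap. The probe with the largest difference, A_64_P008602, designed to the transcript NM_001270773, had levels of -1.40, -1.63 and -1.40 in controls and -1.98, -1.98 and -2.04 in treated animals. It was called lower in the comparison of all probes (limma adjusted p = 0.0241). The other probe designed to that transcript had the smallest difference of the 6, with limma adjusted p = 0.256.

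Across all 19 member probes tested, 3 were called lower and 0 higher by limma, against 1.74% and 4.97% of all probes. The 3 belong to S100g, Trpv5 and Slc8a1. In fits without 1 array, 2 member probes were called without control replicate 2, the cited ones of Trpv5 and Slc8a1, and 0 without any other. At an unadjusted p under 0.05, 7 member probes were lower and 0 higher, where 11.7% of all probes were lower, and 7 probes had no overlap with lower treated values, as did 16.7% of all probes. The mean was lower at 16 of the 19 probes, against 52.2% of all probes, and the other 3 are all of the Slc12a3 probes. Probes of a gene were read in the same animals and do not count as separate evidence, also where they are designed to different transcripts of it, as for Slc8a1 and Wnk1.

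**Figure D2:**
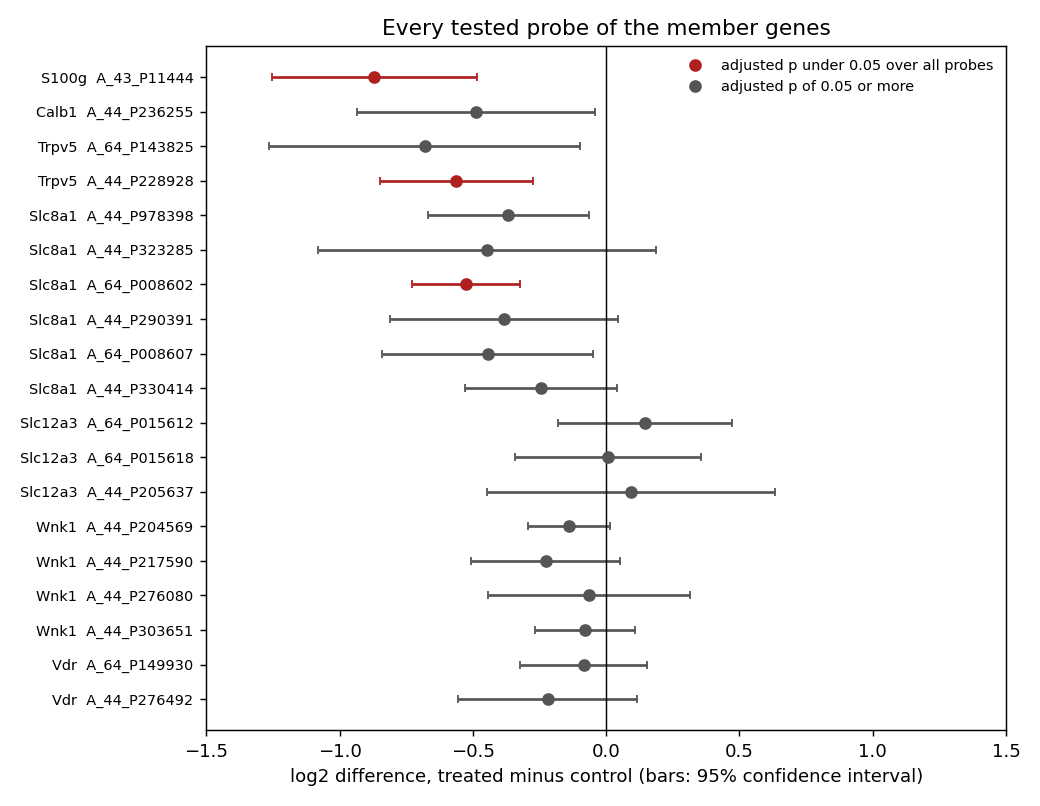
Log2 difference, treated minus control (horizontal axis), of each of the 19 member probes tested, with its 95% confidence interval from the fit over all probes (3 animals per group). Points for S100g, Calb1, Trpv5, Slc8a1, Wnk1 and Vdr all lie below 0, and the 3 Slc12a3 points lie at or just above it, though 2 of them fall below 0 with a normexp background.

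Slc12a3 encodes NCC, the defining transporter of the distal convoluted tubule and the target of thiazide diuretics. At its brightest probe, A_64_P015612, the levels were 4.22, 3.97 and 4.32 in controls and 4.18, 4.26 and 4.52 in treated animals. The groups overlapped, and the highest value belonged to treated replicate 3. The mean was 4.17 ± 0.18 against 4.32 ± 0.18 (SD, n = 3 each), a log2 difference of 0.15 (SE 0.13, limma adjusted p = 0.531). The 95% confidence interval from -0.18 to 0.47 leaves room for a level up to 1.13-fold lower or 1.39-fold higher. The other 2 probes differed by 0.0078 and 0.092, and these small values changed sign under some settings, the former with a normexp background (-0.10) and median scaling (-0.026) and the latter with a normexp background (-0.045).

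Wnk1 encodes a kinase that phosphorylates the activators of NCC, and the kidney also makes a short form without the kinase domain from an internal promoter. At the brightest probe, A_44_P204569, the levels were 5.06, 4.98 and 5.06 in controls and 4.83, 4.94 and 4.92 in treated animals. The groups did not overlap, but the distance between them was small, with a log2 difference of -0.14 (SE 0.06, limma adjusted p = 0.220) that was -0.020 with a normexp background. That is about the size of the median spike-in difference given above. The other 3 Wnk1 probes overlapped between groups, with log2 differences from -0.23 to -0.064. Which of the forms of Wnk1 each probe reads was not tested.

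Vdr, the vitamin D receptor, had levels of 0.52, 0.28 and 0.30 in controls and 0.41, 0.24 and 0.20 in treated animals at its brighter probe. The groups overlapped closely. The log2 difference was -0.084 (SE 0.094, limma adjusted p = 0.618), with a 95% confidence interval from -0.32 to 0.15. It was -0.0090 without control replicate 1 and -0.023 with a normexp background. At the other probe the log2 difference was -0.22 (limma adjusted p = 0.372). Pvalb, the parvalbumin gene, was not well above background on any array and was not tested. So 1 usual marker of the early distal convoluted tubule in rodents could not be read.

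Because the members are read on the same array, their levels can also be set against Slc12a3 within each animal, which removes any scaling of the whole array. S100g minus Slc12a3 was -1.94, -1.63 and -1.66 in controls and -2.54, -2.95 and -2.78 in treated animals. Every treated animal lay below every control, with means of -1.74 ± 0.17 and -2.76 ± 0.21 (SD, n = 3 each), a change of -1.01 on the log2 scale. Calb1 minus Slc12a3 was -1.59, -1.90 and -1.88 in controls and -2.04, -2.39 and -2.83 in treated animals. On this scale the Calb1 groups no longer overlapped. The differences for Trpv5 and Slc8a1 were -0.83 and -0.51, again with no overlap. S100g, Calb1 and Trpv5 kept the groups apart against each of the 3 Slc12a3 probes, Slc8a1 against 2 of the 3, Wnk1 against 1 and Vdr against none. Slc12a3 was taken as the reference after its own values were known. When limma was run on all 12129 other genes minus Slc12a3, 1 of the 6 members, S100g, was lower relative to Slc12a3 (SE 0.19, 95% confidence interval from -1.43 to -0.60, adjusted p = 0.0391), against 0.173% of all genes. The limma adjusted p was 0.267 for Calb1, 0.148 for Trpv5, 0.315 for Slc8a1, 0.492 for Wnk1 and 0.574 for Vdr. At an unadjusted p under 0.05, 4 of the 6 were lower, as were 8.94% of all genes. No overlap, with lower treated values, was found for 5 of the 6 and for 17.6% of all genes on this scale. The S100g call held without control replicate 1, control replicate 3 or treated replicate 1. It did not hold without control replicate 2 (limma adjusted p = 0.0856), treated replicate 2 (0.0522) or treated replicate 3 (0.106). These values do not show which of the genes set against each other moved.

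**Figure D3:**
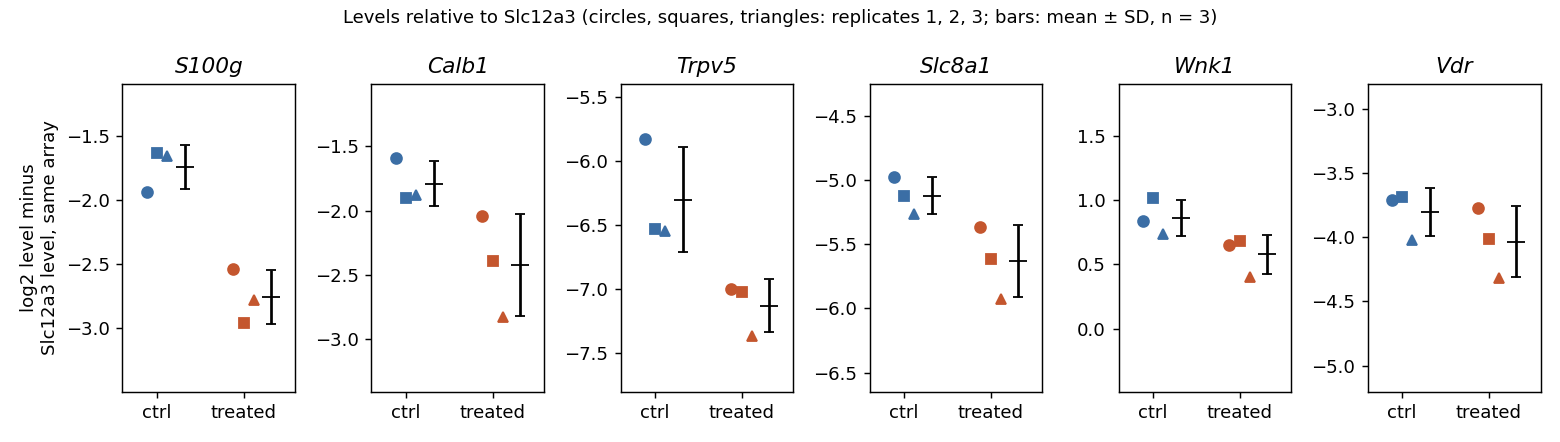
Log2 level of 6 genes minus the Slc12a3 level of the same array (vertical axis), by animal, with the mean ± SD (n = 3). S100g, Calb1, Trpv5, Slc8a1 and Wnk1 are lower relative to Slc12a3 in all treated animals than in any control, and Vdr overlaps.

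Around the members, 4 lists of pathway genes held 79 genes, of which 76 had a probe and 69 were tested. By limma, 1 of the 69 rose and 1 fell, against 3.03% and 1.33% of all genes. Of 21 calcium transport and calcium hormone genes tested, 1 was lower, 0 were higher and 20 did not pass, with a median log2 difference of -0.058. The gene that fell was Casr, the calcium-sensing receptor, which in the thick ascending limb lowers calcium reabsorption when blood calcium is high. Its levels were 3.96, 4.12 and 4.21 in controls and 3.56, 3.58 and 3.62 in treated animals. The treated values were tightly grouped and all below the controls (log2 difference -0.51, SE 0.08, 1.43-fold lower, limma adjusted p = 0.0349). Its other probe had a difference of -0.40. The call on Casr did not hold without any 1 of the 6 arrays, where log2 differences ran from -0.58 to -0.45.

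Cldn14, a claudin that blocks the paracellular calcium path of the thick ascending limb and is itself controlled by the calcium-sensing receptor, had the next smallest p in that list. Its levels were -4.10, -4.49 and -4.11 in controls and -3.69, -3.55 and -3.37 in treated animals. All treated values were above the controls, but the log2 difference of 0.70 (SE 0.14) did not pass over all genes (limma adjusted p = 0.0532). Over all probes the same probe had limma adjusted p = 0.0439. With a normexp background the difference was 0.20 (limma adjusted p = 0.233), and with the stricter filter on dim probes the gene passed (limma adjusted p = 0.0473). The other Cldn14 probe, well above background on 4 of the 6 arrays, differed by -0.60. Further members of the list were picked after their values were seen. The klotho gene Kl, whose protein is the co-receptor for the phosphate hormone FGF23, had a log2 difference of -0.23 (limma adjusted p = 0.0751). Pth1r, the parathyroid hormone receptor, and Atp2b1, a plasma membrane calcium pump, had differences of -0.29 and -0.37, with limma adjusted p = 0.137 and 0.129. Kl, Pth1r and Atp2b1 were lower in all treated animals than in any control. Pthlh, which encodes the parathyroid hormone-related protein, and Calb2, the gene of calretinin, lay the other way, each with a log2 difference of 0.42 and all treated values above the controls (limma adjusted p = 0.0791 and 0.322). Over the 21 genes, 4 were lower and 3 higher in all treated animals than in any control, against 18.7% and 14.1% of all genes. At an unadjusted p under 0.05 the counts were also 4 lower and 3 higher, against 13.2% and 11.8% of all genes.

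Limma called 1 of 22 magnesium genes tested higher and 0 lower, and 21 did not pass, with a median log2 difference of -0.040. The called gene was Slc41a1, a magnesium-sodium exchanger of the basolateral membrane, at 1.49, 1.48 and 1.40 in controls and 2.15, 1.96 and 2.09 in treated animals (log2 difference 0.61, limma adjusted p = 0.0225). This rests on 1 of its 3 probes, since the others had differences of -0.21 and -0.42, so the direction of the gene is unsettled. Without treated replicate 1, 2 or 3 another probe is the brightest, and the differences are -0.28, -0.24 and -0.098. Its relative Slc41a3 had a difference of 0.31 (limma adjusted p = 0.0520 over all genes and 0.0473 over all probes). With the stricter filter on dim probes Slc41a3 passed (limma adjusted p = 0.0467). With a normexp background its difference was 0.15 (limma adjusted p = 0.170). Cnnm2 and Egf, both known from inherited magnesium wasting and chosen here after their values were seen, had differences of -0.25 and -0.087, neither past the threshold. The other Egf probe had a difference of -0.24 with no overlap (limma adjusted p = 0.0950 over all probes). Cnnm4, a relative of Cnnm2 picked in the same way, lay higher in all treated animals than in any control, at a log2 difference of 0.43 (limma adjusted p = 0.0525 over all genes and 0.0453 over all probes), and its other 3 probes overlapped between groups. Where the unadjusted p was under 0.05, the 22 genes held 5 lower and 3 higher ones, against 13.2% and 11.8% of all genes. With no overlap, 7 were lower and 4 higher, against 18.7% and 14.1% of all genes. Trpm7, the close relative of Trpm6, differed by -0.017.

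Of 17 regulators of the sodium chloride cotransporter tested, 0 were called by limma in either direction, with a median log2 difference of -0.032. Where the unadjusted p was under 0.05, 3 were lower and 0 higher, against 13.2% and 11.8% of all genes. The smallest p belonged to Hsd11b2, the enzyme that protects the mineralocorticoid receptor from glucocorticoids, at a log2 difference of -0.39 (limma adjusted p = 0.0816). It was followed by Cab39, the scaffold protein MO25 of the kinases SPAK and OSR1, at -0.19 (limma adjusted p = 0.101). Among 14 identity genes of the distal convoluted tubule, 0 were called, with a median of -0.098. At an unadjusted p under 0.05, 4 were lower and 1 higher, beside the same shares of all genes. Sall3, a transcription factor, had levels of 4.25, 4.00 and 4.04 in controls and 4.69, 4.40 and 4.77 in treated animals. The groups were apart at that probe (log2 difference 0.52, limma adjusted p = 0.0730), while its other probes had differences of -0.20 and 0.31. Kcnj10, the basolateral potassium channel that sets the voltage of these cells, had a log2 difference of -0.68 (limma adjusted p = 0.0885). Its levels were low, from -5.85 to -4.66, and with a normexp background the difference was -0.31 (limma adjusted p = 0.0959). The other Kcnj10 probe was well above background on 1 of the 6 arrays.

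**Figure D4:**
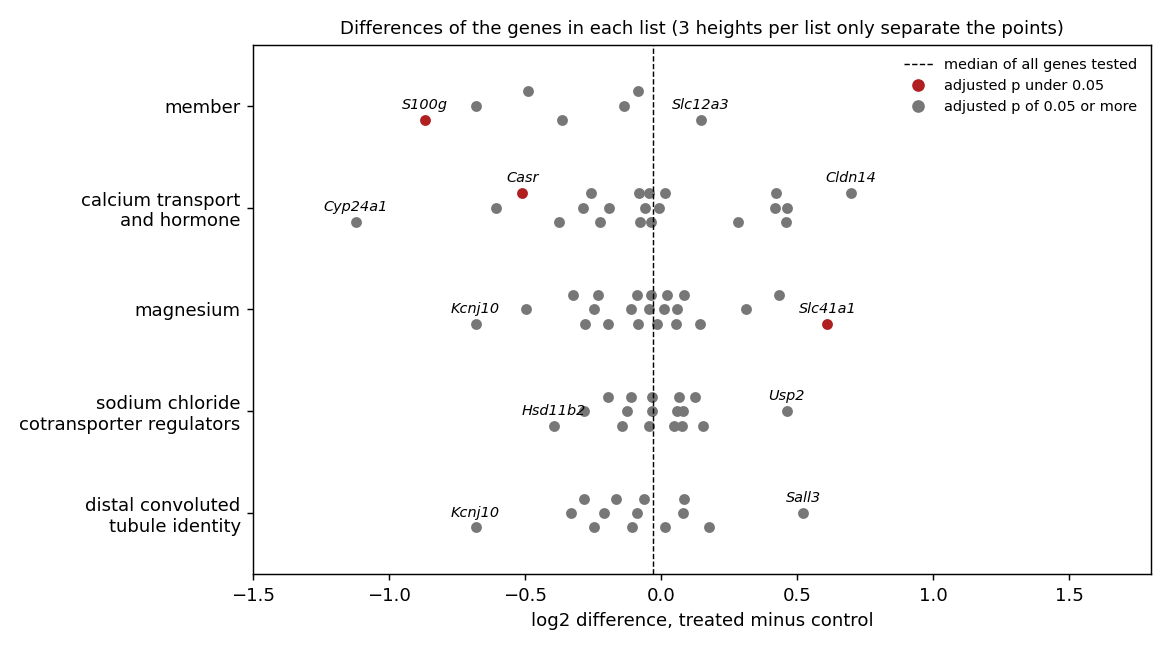
Log2 difference, treated minus control (horizontal axis), of every tested gene in the member list and the 4 pathway lists (rows), 3 animals per group. The dashed line is the median of all genes. Casr and S100g are the genes called lower, and Slc41a1 was called higher at 1 of its 3 probes and had lower means at the others.

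Markers of neighbouring cell types were read on the same arrays. Over all genes, limma called 1.33% lower and 3.03% higher, and 56.5% had a lower mean. At an unadjusted p under 0.05, 13.2% of all genes were lower and 11.8% higher. Of 8 principal cell markers, 1 was called lower by limma, the transcription factor gene Elf5 (log2 difference -0.88, adjusted p = 0.0281), and 7 had lower means. At an unadjusted p under 0.05, 3 of the 8 were lower and 0 higher. With no overlap, 3 were lower and 0 higher, against 18.7% and 14.1% of all genes. A summed level is the log2 of the summed unlogged signals of a list, so the brightest genes lead it. That of the principal cell list, led by Aqp2, ran from 7.76 to 7.92 in controls and from 7.47 to 7.81 in treated animals. Among 6 thick ascending limb markers 0 were called, with 0 at an unadjusted p under 0.05. Their summed level, led by Umod, ran from 8.31 to 8.78 in controls and from 8.01 to 8.43 in treated animals. Among 7 intercalated cell markers 0 were called, with 1 lower and 0 higher where the unadjusted p was under 0.05, and the summed level ran from 7.40 to 7.59 in controls and from 7.30 to 7.40 in treated animals and did not overlap, the nearest 2 animals being almost level. The 7 distal convoluted and connecting tubule markers are all members, so this list repeats values given above. Of the 5 tested, 1 was called lower, 4 were lower at an unadjusted p under 0.05, and 3 were lower with no overlap. Their summed level ran from 4.67 to 5.02 in controls and from 4.69 to 4.91 in treated animals, a sum led by Slc12a3. Of 7 red cell markers tested, 5 were well above background on all 6 arrays. Limma called 0 of these 5, and 4 of them were higher in all treated animals than in any control, where 14.1% of all genes were. The summed level of the 5 ran from 3.20 to 3.32 in controls and from 3.62 to 4.42 in treated animals. That sum is led by Slc4a1, with a control mean of 2.89, against 0.48 for Alas2. The red cell marker Gata1 was called higher (adjusted p = 0.0388), but it was well above background on 0 of 3 control arrays and passed the filter only through the treated group. Of 9 proximal tubule markers limma called 2 lower, Aqp1 and Anpep, and 8 had lower means. Their summed level ran from 10.29 to 10.44 in controls and from 10.22 to 10.26 in treated animals, again without overlap. It called 1 of 5 vascular smooth muscle markers higher, Acta2, and 2 of 7 skeletal muscle markers, Tnni2 and Acta1, of which Acta1 was well above background on 1 of 3 control arrays and passed the filter only through the treated group. None of the podocyte, endothelial, leukocyte and housekeeping markers was called, with 2 lower and 0 higher among these at an unadjusted p under 0.05. The part of these other cell types in the S100g result was not tested.

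The pattern of S100g over the 6 arrays was compared with that of every tested gene by the root mean square difference of levels after each gene's own mean was removed. The closest were Sult1a1, a sulfotransferase gene (0.15 log2 units), Hrg, the gene of histidine-rich glycoprotein (0.16), and Alx1, a homeobox gene (0.17). Among the members Calb1 was closest at 0.34, rank 542 of the genes tested, followed by Slc8a1 at 0.34, rank 552, and Slc12a3 was farthest at 0.53, rank 8232. S100g had its highest control value in replicate 3, whereas Calb1, Trpv5 and Slc8a1 had theirs in replicate 1 at their brightest probes. At the other Trpv5 probe and at Slc8a1 probe A_44_P290391 the highest control value was also in replicate 3.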

How the data were processed

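Per the labels' protocols, total RNA was labelled with Cy3. Per the file headers, the scanner software was Agilent Feature Extraction 10.7.1.1 and the array design is tied to rat build rn4. The submitters' processing notes give the version as 10.7. The deposited intensity used is a background-subtracted, detrended signal, not scaled between arrays. The value table deposited beside it holds a linear ratio equal to that signal divided by the array's 75th percentile (column medians 0.1045 to 0.1102), on a scale found by comparison and stated nowhere in the sources used here, with no log and no centring.

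Log2 signals minus each array's 75th percentile over 61537 non-control probes were compared with limma 3.58.1 (R 4.3.3, lmFit and eBayes, Benjamini-Hochberg). Outlier spots, 1 to 3 per array, were treated as missing. Probes well above background on every array of a group were kept, and a gene was represented by its brightest kept probe, which left 12130 genes; a second fit held all 40988 kept probes. Accessions without versions were matched to RefSeq genes of GRCr8, naming 28206 probes. Because rn4 and GRCr8 differ, no probe or gene is placed on a genome, and only the promoter windows carry coordinates, those of GRCr8. The fit was tested on simulated arrays. For normexp (offset 50), median spot and background signals were used, as no column of mean spot signal was present.

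Members, gene lists and markers were chosen with earlier results of these data known. The text names all members, the called genes of each pathway list or the 2 with the smallest p, called markers that bear on a result, and the 3 genes most like S100g; others are said to be picked after their values were seen. Alternatives changed the background, scaling, filter, value table, variance prior, probe choice and replicate block, and left out each array. The design text calls the animals biological replicates. The main fit did not pair the groups by replicate number (correlations of same-numbered deviations -0.12, -0.11 and 0.089).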

Additional observations from a re-analysis of the deposited data

How the results depend on the processing

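The S100g difference stayed negative under all 15 alternatives (from -0.96 to -0.74) and passed in 5 of them, with limma adjusted p from 0.0282 to 0.114. Calb1, Trpv5, Slc8a1, Wnk1 and Vdr also kept a negative sign and Slc12a3 a positive one at their gene-level values, and none of these passed under any alternative. Members called lower numbered 0 with quantile scaling, with no filter on dim probes, with the mean of a gene's probes and with the replicate block. Members with no overlap were 3 with normexp and with quantile scaling and 4 or 5 under the other alternatives that keep all arrays. Without 1 array the number called lower was 0 throughout, members with no overlap were 4 to 6, and member probes called lower 0 to 2; that probe count was 0 with no filter and 0 with the replicate block. All genes called higher and lower were 368 and 161. They were 37 and 7 with no filter, 229 and 63 with the mean of probes, 0 and 0 with the replicate block, and 0 to 44 and 0 to 2 without 1 array; 496 were lower with normexp and 395 with an intensity trend. Probes called higher and lower, 2039 and 715, became 942 and 120 with no filter, 412 and 24 with the replicate block, and 750 to 1326 and 90 to 152 without 1 array, while 1718 were lower with normexp and 1643 with the trend. Calls in the calcium list, 1 in the report, were 2 with the stricter filter and the trend and 0 with no filter, the mean of probes and the replicate block. Those in the magnesium list, also 1, were 2 with normexp, 3 with the stricter filter, 2 with the trend and 0 with no filter, the mean of probes and the replicate block. Cotransporter regulators had 1 call with normexp, and identity genes 2 with normexp and 1 with the trend. Without 1 array each of the 4 lists had 0 calls. Why calls were lost with the replicate block was not tested. Relative to Slc12a3, S100g was not called with no filter or the replicate block (limma adjusted p = 0.200 and 0.125), and its difference ran from -1.12 to -0.92 over all alternatives, which for these values were added after seeing the data; Trpv5 was called without control replicate 3 alone (-0.95). Slc41a1 reversed with normexp (-0.16), the mean of probes (-0.0044) and without treated replicate 1, 2 or 3, fits in which another of its probes is the brightest (from -0.28 to 0.63 over the 6 fits without 1 array). Slc12a3 probe differences near 0 reversed with normexp (-0.045 and -0.10), median scaling (-0.026) and without control replicate 2 (-0.055 and -0.13) or treated replicate 1 (-0.064 and -0.062), with ranges of -0.064 to 0.28 and -0.13 to 0.10 without 1 array. A Wnk1 probe reversed without control replicate 3 (0.087) or treated replicate 1 (0.017), with a range of -0.17 to 0.087. The causes of other changes were not tested. Slide and scan could not be fitted as a block, since either holds a single group.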

Other observations

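Of the vitamin D enzymes in the calcium list, picked after their values were seen, Cyp24a1, the 24-hydroxylase that breaks down active vitamin D, varied most between animals. Its log2 levels were 1.49, 2.00 and 0.85 in controls and 2.34, -0.38 and -0.98 in treated animals. Treated replicate 1 had the highest value of all 6 animals, and the other two treated animals had the lowest. The second Cyp24a1 probe gave the same order of treated animals, at 0.39, -2.40 and -2.92. The log2 difference of -1.12 (SE 0.90) did not pass (limma adjusted p = 0.478). Cyp27b1, the 1-alpha-hydroxylase that makes active vitamin D, had levels of 0.39, -0.53 and -0.052 in controls and -0.71, -0.23 and -1.07 in treated animals, which overlap (log2 difference -0.61, limma adjusted p = 0.282). Trpv6, the intestinal relative of Trpv5, had a log2 difference of 0.46 that also did not pass (limma adjusted p = 0.422). It was well above background on 2 of 3 control arrays and passed the filter only through the treated group.

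Scnn1b, which encodes the beta subunit of the epithelial sodium channel of the connecting tubule and collecting duct, was likewise picked after its values were seen. Its levels were 4.59, 4.28 and 4.49 in controls and 3.85, 4.10 and 3.79 in treated animals, with no overlap. The log2 difference of -0.54 (SE 0.12) missed the threshold (limma adjusted p = 0.0626). The alpha and gamma subunit genes overlapped between groups, with log2 differences of 0.20 for Scnn1a (limma adjusted p = 0.271) and -0.10 for Scnn1g (limma adjusted p = 0.630). Egfr, the receptor through which EGF acts on magnesium uptake, had levels of 0.73, 0.76 and 0.79 in controls and 0.54, 0.031 and 0.22 in treated animals, also without overlap (log2 difference -0.50, limma adjusted p = 0.0918). Both of its probes had lower means in treated animals.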
